A study of Schizosaccharomyces pombe with 36 samples.

Results

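RNA carrying 4-thiouracil after the longest labelling of wild-type (WT) Schizosaccharomyces pombe, called labelled 125, was compared with the unselected RNA of the same cultures, called steady state. The libraries were taken by genotype and fraction as the labels give them: 3 WT labelled 125 and 3 WT steady state libraries, 6 of the 36 in the series, paired by culture. Of the rows in each library only the 7268 S. pombe identifiers were used. The series holds WT cells of strain yAS99 and slr1 knockout cells of strain yMAB001, both streaked on YES plates at 32 °C, with each culture started from a single colony and given 5 mM 4-thiouracil. From 3 cultures per genotype it has a steady state library and labelled libraries at 5 time points, and every group named here, steady state included, is described with that same treatment. Neither the unit of the time points nor the moment at which the steady state portion was taken is given in the sources used here. The comparison asks which transcripts still held a different share of the labelled RNA than of the standing pool at the last time point.

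4-Thiouracil is taken up by the cell, turned into a nucleotide and built into new RNA in place of uridine. The thiol group can then be coupled to biotin, so that RNA made since the label was added can be pulled down on streptavidin beads while older RNA stays behind. Early after labelling the pulled-down RNA reflects what is being transcribed, and with time it approaches the standing pool as old transcripts decay and are diluted by growth. Long-lived mRNAs, among which those of cytosolic ribosomal proteins are known in yeasts, approach it last. Libraries were made with a stranded mRNA kit, which captures polyadenylated RNA.

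The WT libraries held 6517092, 5690338 and 3132759 counts on S. pombe genes in labelled 125 and 3758996, 4244433 and 1262590 in steady state, for cultures 1, 2 and 3. Culture 3 stood apart, with 0.00228 fly counts per human count in labelled 125 and 2.02 in steady state, against 0.0139 and 0.0280 in labelled 125 and 1.04 and 0.990 in steady state of cultures 1 and 2. Reads that mapped to several places were 6.74 to 8.49% of all in labelled 125 and 21.8 to 38.2% in steady state. The part of culture 3 and of these reads in the results was not tested, except where values without culture 3 are given. Values are TMM-scaled CPM, a gene's part of the S. pombe counts of a library. They are shares, so less of a transcript per cell and more of all other transcripts cannot be told apart. The slr1 transcript (SPAC1527.03), which encodes a La-related RNA-binding protein, was read in all WT libraries, at 222, 168 and 161 CPM in labelled 125 and 143, 111 and 128 CPM in steady state of cultures 1, 2 and 3.

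At the last time point labelled RNA was close to the standing pool for most genes. Of 5657 genes tested, 4602 (81.4%) had a log2 fold change of labelled 125 over steady state under 0.5 in size and 191 (3.38%) reached 1 or more, around a median of -0.04. The median does not show closeness to the pool, since the scaling keeps it near 0. On the CPM scale it was 0.067 at labelled 5 and 0.0094 at labelled 125. In edgeR's quasi-likelihood test with the culture as a block, 295 genes were higher in labelled RNA (5.21%) and 180 were lower (3.18%) at an adjusted p under 0.05, 8.4% in all, and 1583 (28%) had an unadjusted p under 0.05. The higher genes had a median log2 fold change of 0.62 (0.40 to 1.46) and went up in each of the 3 cultures without exception. The lower genes had a median of -0.72 (-0.39 to -2.71), and 174 of the 180 were lower in each culture. The higher genes made up 9.69 ± 1.13% of the counts in labelled 125 and 5.66 ± 0.19% in steady state, and the lower genes 9.36 ± 1.47% in labelled 125 and 15.1 ± 1.40% in steady state (SD, n = 3 cultures). All 3 labelled libraries lay above all 3 steady state libraries for 181 of the higher genes, where 7.8% of all genes did so, and below for 57 of the lower genes, where 4.84% did so. The called genes were picked by the test on these same 6 libraries. Their directions, shares and lack of overlap therefore describe them and are no added support.

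These counts rested on culture 2 and on the pairing. Without culture 2 no gene passed in edgeR (673 had an unadjusted p under 0.05 and the smallest adjusted p was 0.148), and without the culture as a block none passed (324 unadjusted), so that each call named here ends in both. Without culture 3, which leaves the pair of cultures with like fly counts per human count, 707 genes were higher and 610 lower. Those included all 295 and all 180 of the genes called with 3 cultures.

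The genes that differed most were of different kinds. Among the lower ones were small mRNAs of ribosomal proteins and of the respiratory chain, and among the higher ones were long mRNAs of plasma membrane and cell wall proteins. The coding sequences of a few are shown for their length and their content of uridine, the base that carries the label, and are from the RefSeq annotation of the ASM294v3 assembly. They are in lower case with each T, a uridine in the RNA, in capitals. The first 3 belong to transcripts that were lower in labelled RNA, and ecl3 is a short one that was higher. Of pma1 and fhn1 only the first 180 bases of the coding sequence are shown. Both rpl29 and fhn1 were chosen after their values were seen.
rps29: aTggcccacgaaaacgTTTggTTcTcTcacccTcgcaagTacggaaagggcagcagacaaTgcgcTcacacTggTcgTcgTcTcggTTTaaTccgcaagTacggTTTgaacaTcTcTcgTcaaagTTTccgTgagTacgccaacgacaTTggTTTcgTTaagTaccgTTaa
rpl29: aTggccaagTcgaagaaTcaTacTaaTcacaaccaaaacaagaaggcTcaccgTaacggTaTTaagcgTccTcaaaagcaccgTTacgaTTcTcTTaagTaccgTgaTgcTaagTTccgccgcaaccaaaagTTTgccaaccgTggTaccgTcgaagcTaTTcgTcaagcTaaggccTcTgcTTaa
cox8: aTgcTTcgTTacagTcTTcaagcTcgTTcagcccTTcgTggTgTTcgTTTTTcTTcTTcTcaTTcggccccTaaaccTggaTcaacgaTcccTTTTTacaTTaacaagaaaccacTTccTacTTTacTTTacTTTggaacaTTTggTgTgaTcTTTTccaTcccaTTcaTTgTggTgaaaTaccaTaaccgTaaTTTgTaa
ecl3: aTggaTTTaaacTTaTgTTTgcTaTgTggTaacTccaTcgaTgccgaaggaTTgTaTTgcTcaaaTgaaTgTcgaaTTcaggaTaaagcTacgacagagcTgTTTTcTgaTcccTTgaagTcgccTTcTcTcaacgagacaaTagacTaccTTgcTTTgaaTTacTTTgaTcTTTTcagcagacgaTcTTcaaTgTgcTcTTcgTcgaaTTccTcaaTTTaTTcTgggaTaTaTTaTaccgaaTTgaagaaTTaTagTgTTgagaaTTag
pma1: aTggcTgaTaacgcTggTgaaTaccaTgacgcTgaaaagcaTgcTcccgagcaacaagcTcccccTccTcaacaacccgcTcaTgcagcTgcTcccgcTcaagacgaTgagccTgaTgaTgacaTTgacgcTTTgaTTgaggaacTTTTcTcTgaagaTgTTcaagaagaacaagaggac
fhn1: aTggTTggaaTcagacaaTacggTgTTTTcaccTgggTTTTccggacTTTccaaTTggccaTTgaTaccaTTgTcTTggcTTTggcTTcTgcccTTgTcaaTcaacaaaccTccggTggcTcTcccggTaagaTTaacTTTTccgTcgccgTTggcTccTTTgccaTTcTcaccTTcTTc
The coding sequence of rps29 had 44 uridines in 171 bases, that of rpl29 41 in 186, that of cox8 76 in 201 and that of ecl3 94 in 270. The whole coding sequence of pma1 had 937 in 2760 and that of fhn1 181 in 552. The 180 bases shown had 38 uridines (21.1%) for pma1 and 63 (35%) for fhn1, and the whole coding sequence of rps29 had 25.7%. The start of pma1 does not stand for its whole transcript. Counted over the annotated transcript, rps29 had 101 uridines in 329 nt (30.7%) and pma1 1700 in 4470 nt (38.0%), so that pma1 was the richer.

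The 12 most raised genes encode transporters and pumps as well as a transcription factor, an RNA-binding protein, a kinase and a protease. The proton pump gene pma1, whose product energises the plasma membrane, had 4333, 9882 and 15340 CPM in labelled 125 and 1803, 4454 and 5757 CPM in steady state of cultures 1, 2 and 3. The fractions overlapped because the cultures differed, but in each culture labelled RNA was above the pool, with a log2 fold change of 1.23 (SE 0.13, edgeR adjusted p = 0.00752). For fil1, a GATA-type transcription factor gene, the values were 816, 845 and 594 CPM in labelled 125 and 265, 300 and 269 CPM in steady state. All 3 labelled libraries lay above all 3 of the pool, at a log2 fold change of 1.39 (SE 0.12, edgeR adjusted p = 0.00645). The RNA-binding protein gene scw1 had 86.2, 108 and 138 CPM in labelled 125 and 39.2, 45.7 and 35.3 CPM in steady state (log2 fold change 1.35, SE 0.17), again without overlap. Calcium pump gene pmr1 had 179, 274 and 216 CPM in labelled 125 and 77.5, 116 and 92.0 CPM in steady state (log2 fold change 1.18, SE 0.09), and its 3 cultures gave nearly the same ratio, 1.19, 1.23 and 1.22 on the log2 scale.

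Others of the 12 most raised genes carry nutrients or sense the wall. Log2 fold changes were 1.34 for amt1, an ammonium transporter gene, 1.24 for per1 and 1.20 for aat1, both amino acid permease genes, and 1.20 for pho842, a phosphate transporter gene. They were 1.27 for wsc1, which encodes a cell wall stress sensor, 1.22 for oca2, which encodes a protein kinase, and 1.22 for nep2, which encodes a protease acting on NEDD8. For each of these 7 genes all 3 labelled libraries lay above all 3 of the pool, with edgeR adjusted p between 0.00611 (oca2, pho842) and 0.0336 (nep2). The largest change was that of ecl3, a short gene linked to extended chronological lifespan, with 33.4, 40.4 and 15.5 CPM in labelled 125 and 9.45, 12.1 and 11.5 CPM in steady state (log2 fold change 1.46, SE 0.29, edgeR adjusted p = 0.0304). The fhn1 gene, of plasma membrane organisation, had a change of 0.99 (SE 0.10, edgeR adjusted p = 0.00645). Culture 3 gave ecl3 a log2 ratio of 0.40, against 1.72 and 1.66 in cultures 1 and 2.

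**Figure D1:**
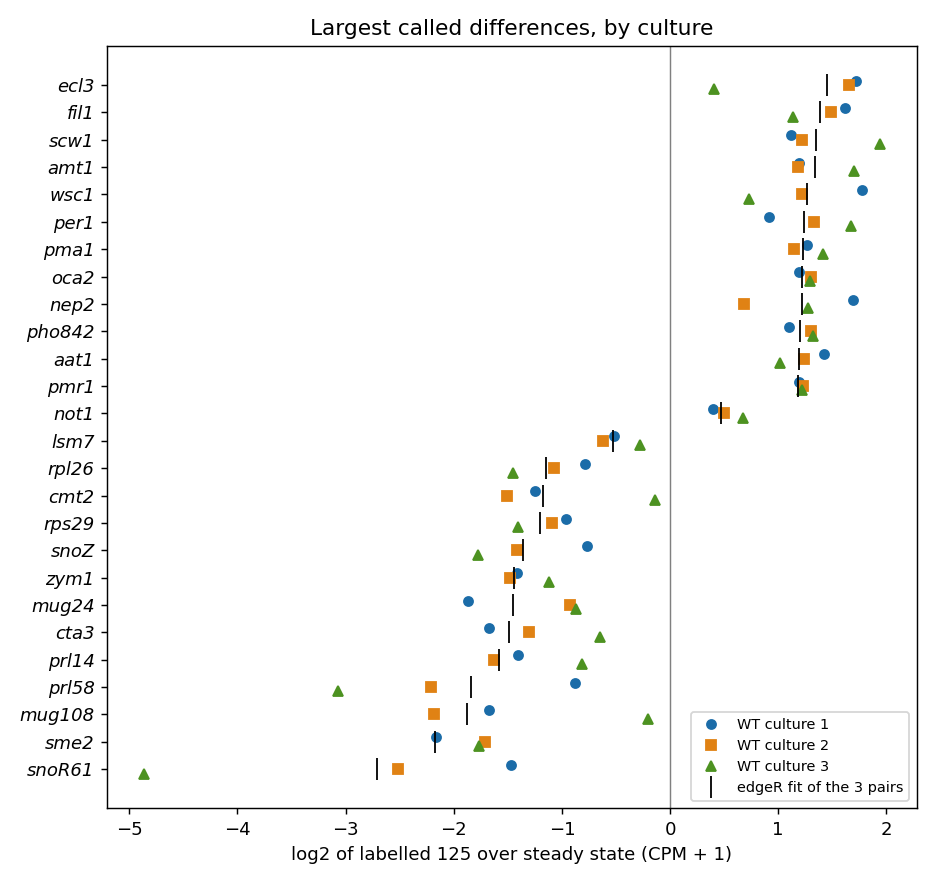
Log2 ratio of WT labelled 125 over WT steady state (CPM + 1) in each culture for the 12 most raised and 12 most lowered genes with a symbol and for not1 and lsm7, with the edgeR fold change of the 3 pairs as a black bar. All points of the 12 raised genes lie right of 0, and those of snoR61 spread from -1.47 in culture 1 to -4.86 in culture 3.

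Gene groups read from product names were chosen after values were seen and are given as a description. Of 206 tested genes whose product names a transporter, permease, exchanger or P-type ATPase, 41 were higher and 1 lower, with a median of 0.26, and of 25 naming a glucan or cell wall enzyme, 12 were higher and 0 lower, with a median of 0.50. Among these were the glucan synthase genes bgs1 (log2 fold change 0.79), bgs3 (0.68) and bgs4 (0.79) and the alpha-glucan synthase gene ags1 (0.94), all with edgeR adjusted p between 0.00664 and 0.0108. Of 205 genes naming a kinase, 18 were higher and 0 lower (median 0.10). Over all genes tested 5.21% were higher and 3.18% lower, with a median of -0.04. With a correction for transcript length 17 transporter genes were higher and 1 lower, 6 wall enzyme genes higher and 0 lower, and 5 kinase genes higher and 0 lower, where 2.15% of all genes were higher. The 4 synthase transcripts are long, 6443 to 8667 nt where the wall enzyme list had a median of 2386 nt, and none of them passed with it (edgeR adjusted p 0.0656 to 0.321). Of the genes described before them, pma1, fil1, scw1, pmr1, amt1, per1, aat1, pho842, wsc1, oca2 and ecl3 still passed with it, and nep2 did not (0.0808).

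Messenger RNAs of cytosolic ribosomal proteins, the protein parts of the cytoplasmic ribosome, were the largest group of lower genes. Of 138 tested, 62 were lower and 0 higher, where 3.18% of all genes were lower, and all 138 had a log2 fold change below 0, with a median of -0.54. DESeq2 called 102 lower, and 136 were below 0 without culture 3. The group made up 16.1 ± 3.61% of the counts in labelled 125 and 23.1 ± 3.48% in steady state (SD, n = 3 cultures). The median log2 ratio was -0.29 in culture 1, -0.43 in culture 2 and -0.85 in culture 3. The small-subunit gene rps29 had 414, 599 and 739 CPM in labelled 125 and 808, 1278 and 1959 CPM in steady state, without overlap (log2 fold change -1.20, SE 0.12, edgeR adjusted p = 0.00752). The large-subunit gene rpl26 had 1706, 2841 and 2029 CPM in labelled 125 and 2943, 5962 and 5563 CPM in steady state, also without overlap (-1.15, SE 0.16). For rpl29 the change was -1.05 (SE 0.14). At the other end, rps901 had a change of -0.14 that did not pass (edgeR adjusted p = 0.396). Many of these genes have near-identical copies, and reads that mapped to several places, which were rarer in labelled 125, were not counted, so single values in this group are uncertain.

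The distance of ribosomal protein mRNAs from the pool shrank over the time points. Their median log2 ratio to steady state was -2.24, -1.30, -0.72, -0.53 and -0.50 at labelled 5, 20, 50, 105 and 125. For rps29 the mean level was 103, 230, 426, 613 and 584 CPM at these time points and 1348 CPM in steady state. Between 105 and 125 the median changed by less than the spread between cultures at 125. All time points share the steady state libraries and no test was made across them.

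Nuclear genes of the respiratory chain and ATP synthase, which act in the inner mitochondrial membrane, had a median of -0.26, with 5 of 33 lower and 0 higher, beside 3.18% of all genes lower. Without culture 3 the median was -0.15. The gene of cytochrome c oxidase subunit VIII, cox8, had 24.5, 41.5 and 40.4 CPM in labelled 125 and 41.2, 79.8 and 124 CPM in steady state (log2 fold change -1.13, SE 0.19, edgeR adjusted p = 0.0185). It was lower in each culture, although the highest labelled library reached the lowest of the pool. The other 4 were qcr9 (-0.64), cox13 (-0.60), qcr6 (-0.44) and atp7 (-0.39). This group too approached the pool, with a median of -1.24 at labelled 5 and -0.22 at labelled 125 on the CPM scale. Of 59 mitochondrial ribosomal protein genes 3 were lower, among them mrpl39 (-1.06) and mrpl38 (-0.80). Of 23 genes listed for mitochondrial import 3 were lower, among them tim10, a chaperone of the intermembrane space (-0.69), and tim11, which the annotation gives as a subunit of ATP synthase (-0.65). Of 14 vacuolar ATPase genes, which acidify the vacuole, 2 were lower: vma10 (-0.86) and vma7 (-0.47). All these transcripts are short, and with the correction for transcript length cox8 alone of those named here passed (edgeR adjusted p = 0.0469).

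Other parts of the translation machinery were read from 3 lists. Of 10 elongation factor genes 2 were lower, tif512, which encodes eIF5A (-1.04), and egd2, of the nascent polypeptide-associated complex (-0.60), beside 3.18% of all genes lower. The median was -0.13, and it was -0.053 without culture 3 and -0.061 with library totals as the scaling. Of 26 initiation factor genes 1 was higher, tif213 of eIF2 (0.40), beside 5.21% of all genes, and the median was 0.05, or 0.021 to 0.074 when a culture was left out. Of 99 ribosome biogenesis genes 7 were higher and 3 lower, with a median of 0.08, or 0.046 to 0.094 when a culture was left out. Among the higher were utp20 (1.0) and utp10 (0.81), large proteins of the particle that processes pre-ribosomal RNA, and among the lower were rrp7 (-0.57) and tsr2 (-0.50), which are small. With the correction for transcript length no biogenesis gene passed in either direction, nor did egd2, while tif512 and tif213 passed. In DESeq2 tif213 and rrp7 did not pass (adjusted p = 0.051 and 0.055).

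**Figure D2:**
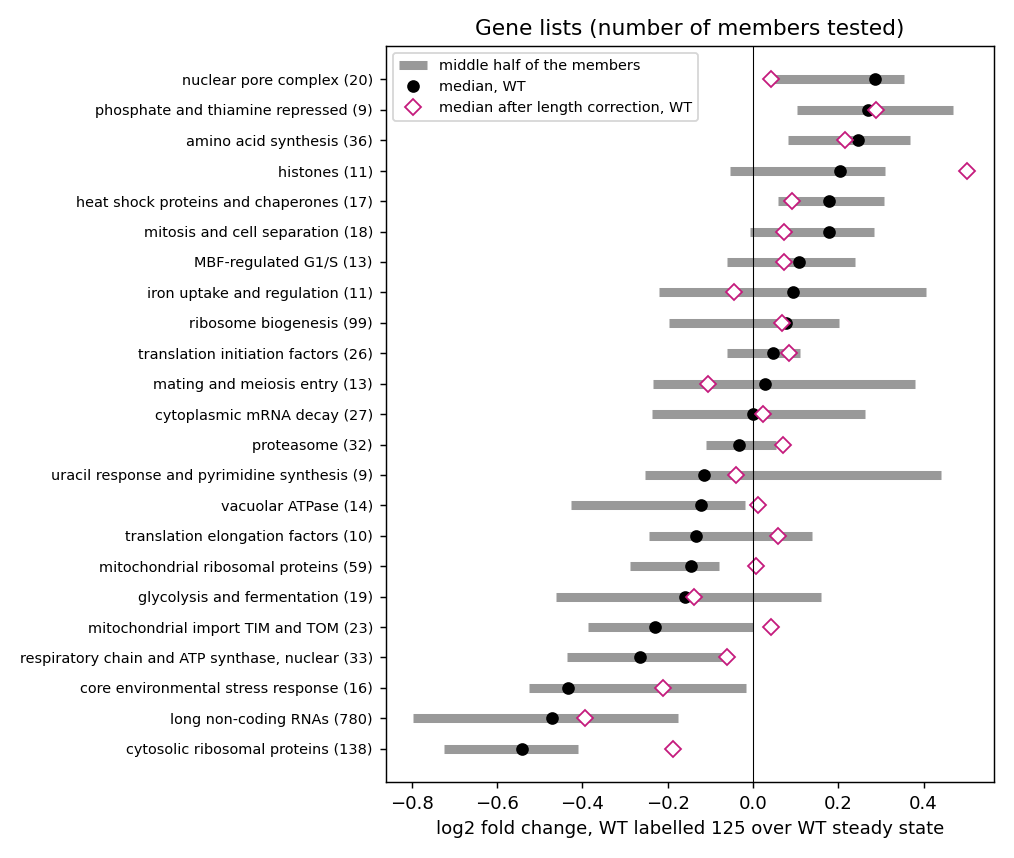
Median WT log2 fold change of labelled 125 over steady state for each gene list with at least 9 tested members, with the middle part of the members between the quartiles as a grey bar and the median after correction for transcript length as an open diamond. Ribosomal proteins (-0.54) and long non-coding RNAs (-0.47) lie lowest, and nuclear pore genes drop to 0.04 after the correction.

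Amino acid synthesis, by which the cell makes its own building blocks of protein, was among the lists with a median above 0. Of 36 genes tested 7 rose and 0 fell, where 5.21% of all genes were higher, with a median of 0.25, and the same number passed with the length correction. The gene aro1, whose product carries out several steps of aromatic amino acid synthesis, had 323, 420 and 313 CPM in labelled 125 and 173, 234 and 168 CPM in steady state, without overlap (log2 fold change 0.84, SE 0.09, edgeR adjusted p = 0.00752). Glutamine synthetase gene gln1 had 283, 353 and 399 CPM in labelled 125 and 148, 222 and 228 CPM in steady state (0.76, SE 0.10), likewise without overlap. The other 5 were ilv1 (0.59), lys1 (0.56), arg4 (0.53), leu3 (0.46) and lys12 (0.41). Of 9 tested genes of uracil response and pyrimidine synthesis 2 were higher and 1 lower, beside 5.21% and 3.18% of all genes. The median of this list was -0.11, with 6 of the 9 below 0. The higher ones were ura1, which catalyses the first steps of pyrimidine synthesis (1.12, SE 0.11), and ura3 (0.54). The lower one was urg2, a putative uracil phosphoribosyltransferase gene (-0.75). The urg2 level was 664, 99.0 and 21.4 CPM in labelled 125 and 1128, 181 and 23.8 CPM in steady state of cultures 1, 2 and 3, so that the cultures differed far more than the fractions, and its call ended with the length correction (0.0608).

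Histone genes, which have short transcripts, had a median above 0. Of 11 tested, 2 were higher, hta1 of histone H2A (0.69, SE 0.11) and hhf1 of histone H4 (0.57, SE 0.11), beside 5.21% of all genes, and 0 were lower, with a median of 0.20 and a median transcript of 873 nt. The hta1 level was 987, 1605 and 987 CPM in labelled 125 and 532, 1097 and 577 CPM in steady state, and hhf1 lost its call without culture 1 (edgeR adjusted p = 0.056). With the correction for transcript length the histone median was 0.50 and 5 of 11 were higher. Histone mRNA is made in a narrow part of the cell cycle.

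Nuclear pore genes, with a median transcript of 3638 nt, had a median of 0.29, with 4 of 20 higher and 0 lower: nup189 (0.62), nup155 (0.61), nup186 (0.60) and nup146 (0.54). The counts of this and the next lists stand beside 5.21% of all genes higher and 3.18% lower. With the length correction the median was 0.04 and 0 passed. Of 27 genes of cytoplasmic mRNA decay 1 was higher, not1, the scaffold of the deadenylase complex (0.47), and 1 lower, lsm7 (-0.52). The length correction turned not1 to -0.04. Of 18 genes of mitosis and cell separation 2 were higher, adg3 (0.69) and eng1 (0.54), both glucan-cleaving enzymes of the septum, and the median was 0.18. Of 13 mating and meiosis entry genes 1 was higher, the master regulator ste11 (0.71). Iron genes fep1 (0.89) and str1 (0.48) of 11 and the hexose transporter gene ght2 (0.52) of 6 were higher. So were pho1 (0.54) and pho84 (0.49) of 9 genes repressed by phosphate or thiamine. Of 32 proteasome genes 1 was higher (rpn502, 0.52) and 1 lower (rpn12, -0.41). No gene of glycolysis and fermentation (19 tested) or of the MBF-regulated set that acts at the start of S phase (13 tested) passed, and the smallest edgeR adjusted p of these lists were 0.0508 (gpd3) and 0.139 (cdc22). Without culture 3 gpd3 (-0.54 with 3 cultures), pdc102 (-1.40) and suc22 (0.26) passed. The calls of str1 and pho84 also ended without culture 1 (0.07 and 0.185). With the length correction lsm7, adg3, eng1, ste11, str1, pho84, ght2 and rpn12 did not pass, and fep1, pho1 and rpn502 did. With all fractions in one fit the calls of eng1, ste11, str1, pho1 and pho84 ended (edgeR adjusted p 0.103 to 0.24).

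Several stress genes were lower and at the same time followed culture 1. Of 16 core environmental stress response genes 3 were lower and 0 higher, beside 3.18% of all genes lower, with a median of -0.43. The median was -0.27 without culture 1, and the median ratios of the list within cultures 1, 2 and 3 were -0.51, 0.0065 and -0.15. The metallothionein gene zym1, whose product binds metals, had 168, 25.2 and 16.8 CPM in labelled 125 and 448, 72.1 and 37.8 CPM in steady state of cultures 1, 2 and 3 (log2 fold change -1.44, SE 0.11, edgeR adjusted p = 0.00611). The calcium pump gene cta3 had 63.8, 12.4 and 6.47 CPM in labelled 125 and 205, 31.9 and 10.7 CPM in steady state (-1.49, SE 0.18). Culture 1 was the highest of its fraction for both, and the fractions overlapped although each culture was lower in labelled RNA. The same held for mug108 (-1.88) and for the methyltransferase gene cmt2 (-1.18), whose ratios in culture 3 were -0.20 and -0.14. Heat shock gene hsp16, of a small chaperone, was also lower (-0.62, SE 0.14), and its mean level was 57.8, 2281, 698, 209 and 165 CPM at labelled 5, 20, 50, 105 and 125, against 238 CPM in steady state. At labelled 20 its SD over cultures was 2621 CPM. The call of hsp16 ended with the length correction (0.275) and with library totals as the scaling. The other 16 heat shock and chaperone genes did not pass, and the list median was 0.18, against 0.081 without culture 3.

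Non-coding RNAs had a median below 0. Of 780 tested identifiers of long non-coding RNAs 27 were lower and 0 higher, a count near the 3.18% of all genes that were lower. Of the 780, 685 had a log2 fold change below 0, with a median of -0.47, where 3111 of all 5657 genes were below 0, with a median of -0.04. The median ratios of the class within cultures 1, 2 and 3 were -0.18, -0.33 and -0.64, and its median was -0.32 without culture 3. These RNAs were read at a median of 9.08 CPM, against 91.9 CPM for protein-coding genes. Several of the 27 are annotated as small nucleolar RNAs, which guide modification of ribosomal RNA, or as their precursors: snoR61 (-2.71, SE 0.54), snR90 (-2.03), snoZ (-1.36) and snR30 (-0.83). The snoR61 level was 18, 5.6 and 1.94 CPM in labelled 125 and 51.6, 36.7 and 84.6 CPM in steady state, without overlap. The meiotic RNA sme2, also called meiRNA, which takes part in the selective removal of meiotic mRNAs, had 12.4, 3.5 and 2.91 CPM in labelled 125 and 58.9, 13.7 and 12.3 CPM in steady state (-2.17, SE 0.23, edgeR adjusted p = 0.00752), lower in each culture and with overlap between the fractions. The poly(A)-bearing RNA prl58 (-1.84), prl14 (-1.58), SPNCRNA.1074 (-1.56) and SPNCRNA.1251 (-2.30) were lower too. The median log2 ratios of the class to steady state were -0.48, -0.32, -0.26, -0.33 and -0.41 at labelled 5, 20, 50, 105 and 125, closest to 0 at 50. With the correction for transcript length 23 of 774 were lower, and the median was -0.39. The calls of prl58 (0.0509) and SPNCRNA.1251 (0.0745) ended with it, and that of SPNCRNA.1074 without culture 1 (0.122). With no strand setting of the counting known, reads of an antisense or overlapping RNA and of its partner gene cannot be told apart.

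Few other kinds of RNA could be tested. Of 60 small nuclear and nucleolar RNA identifiers only snR101 had enough counts (-0.59, edgeR adjusted p = 0.359), and of 245 ribosomal and transfer RNA identifiers only SPRRNA.01 (-1.08) and SPRRNA.02 (-1.11), which did not pass. Of 13 Tf2 retrotransposon identifiers 2 were tested, Tf2-10 (0.41) and Tf2-11 (0.01), and neither passed. Of 11 meiotic mRNAs that the protein Mmi1 removes 4 were tested, 1 of them the sme2 transcript described above. None of the 36 mitochondrial genome identifiers had enough counts for a test.

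**Figure D3:**
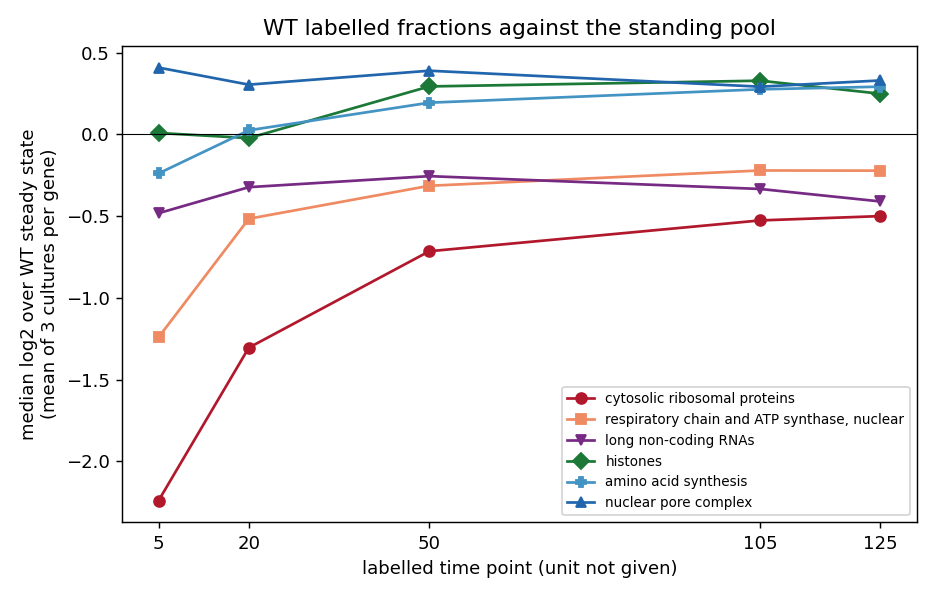
Median over each gene list of the log2 ratio of WT labelled RNA to WT steady state, against labelled time point, from the mean of 3 cultures per gene. The ribosomal protein line climbs to -0.50 at 125, and long non-coding RNAs lie between -0.48 and -0.26.

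The genes called higher and lower differed in transcript length. The 4847 tested protein-coding genes were put into 10 classes of nearly equal size by annotated transcript length. In the shortest class (186 to 778 nt) 2 of 485 genes were higher and 91 lower, with a median of -0.38, and in the longest (3508 to 15002 nt) 152 of 485 were higher and 1 lower, with a median of 0.37. The median grew from class to class. In cultures 1, 2 and 3 the shortest class had a median log2 ratio of -0.17, -0.28 and -0.55 and the longest 0.31, 0.44 and 0.55, so that the order held in each culture and its span was widest in culture 3. The protein-coding genes called higher had a median transcript of 3603 nt with 1183 uridines, those called lower 670 nt with 211, and all tested ones 1727 nt with 556.

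**Figure D4:**
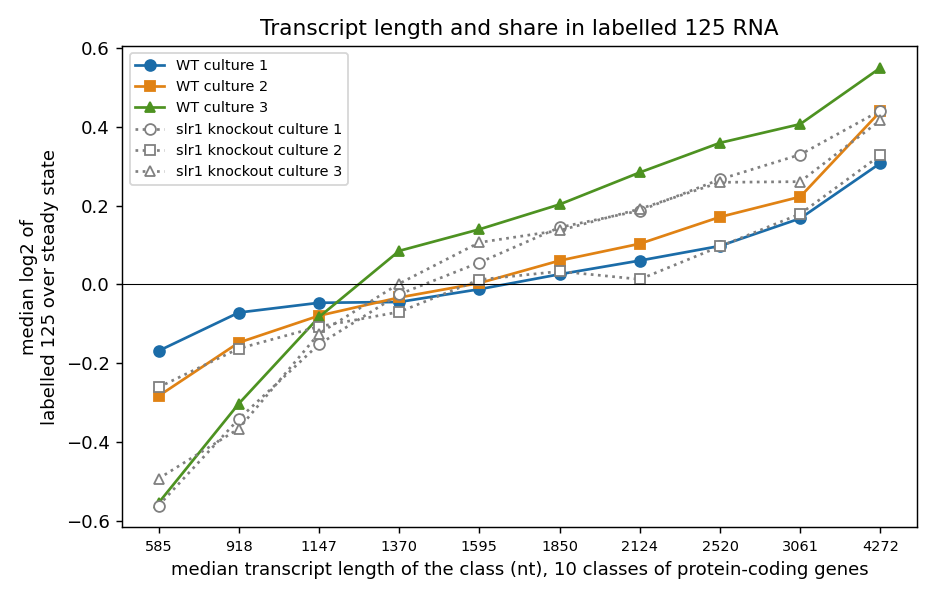
Median log2 ratio of labelled 125 over steady state in 10 classes of protein-coding genes ordered by transcript length, for each WT culture (filled) and each slr1 knockout culture (open, dotted). Every line lies below 0 in the shortest class, down to -0.56, and above 0 in the longest, up to 0.55.

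Over the same 4847 genes Spearman's rank correlation between log2 fold change and transcript length was 0.60, with 0.39, 0.53 and 0.56 within cultures 1, 2 and 3. It was 0.61 for the number of uridines, 0.15 for the percentage of uridine and 0.19 for GC content, which was -0.09 in culture 1 and 0.35 in culture 3. These are descriptions across genes of the same libraries, which are no replicates, and length and number of uridines go together. Without the ribosomal proteins the value for length was 0.58. Protein-coding genes were also split into 3 classes of length and 3 of uridine percentage. Among long transcripts (2183 nt or more) those richest in uridine had a median of 0.29, with 140 of 526 higher, the middle class 0.21, with 82 of 569, and those poorest in it 0.15, with 30 of 521. Among short transcripts (up to 1338 nt) the richest had a median of -0.18, with 24 of 504 lower, the middle class -0.16, with 27 of 500, and the poorest -0.27, with 88 of 612, so that the medians of short transcripts did not follow uridine percentage in order. Long transcripts without an intron had 191 of 929 higher (median 0.26) and those with one 61 of 687 (median 0.14).

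The length difference was also present at each earlier time point. The longest class had medians of 0.62, 0.25, 0.34, 0.37 and 0.42 at labelled 5, 20, 50, 105 and 125 over steady state, and the shortest -0.88, -0.42, -0.36, -0.36 and -0.34. When a smooth trend on transcript length was removed from each library, an option added after the relation was seen, 121 genes were higher (2.15%) and 93 lower (1.65%) of 5638 tested. Of these 97 and 74 were among the genes called without it. The ribosomal protein median was then -0.19, with 34 of 138 lower and 0 higher, the respiratory chain median -0.06, and the difference in median between the longest and the shortest class 0.03 in place of 0.75. The parts that length, uridine content and lifetime of a transcript play in these differences were not tested.

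The slr1 knockout cultures gave the same measure in cells the WT comparison does not use. In edgeR 0 of 5284 genes passed there, while 1256 (23.8%) had an unadjusted p under 0.05, DESeq2 called 88 higher (1.67%) and 134 lower (2.54%), and edgeR across the 18 knockout libraries called 438 higher (7.92%) and 545 lower (9.85%). Of the 295 genes higher in WT 294 were above 0 in the knockout and 238 also had an unadjusted p under 0.05, which 10.4% of all genes had in that direction, with a median of 0.62 in WT and 0.60 in the knockout. The exception was slr1 itself, the gene knocked out in those cells, which was read there at only 9.47 to 26.3 CPM. Of the 180 genes lower in WT 170 were tested in the knockout, all 170 were below 0 and 142 had an unadjusted p under 0.05, which 13.4% of all genes had in that direction, with a median of -0.72 in WT and -0.69 in the knockout. Of all genes tested in both genotypes 2473 were above and 2810 below 0 in the knockout. By fly counts per human count in steady state, knockout cultures 1 and 3 (2.15 and 1.85) were like WT culture 3 (2.02). Knockout culture 2 (1.07) was like WT cultures 1 and 2 (1.04 and 0.990). The genotypes are thus unbalanced in this trait, and its part in their comparison was not tested.

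The pma1 level in the knockout was 10680, 6541 and 16140 CPM in labelled 125 and 5307, 3084 and 4828 CPM in steady state of cultures 1, 2 and 3, with a log2 fold change of 1.23 in WT and 1.27 in the knockout. For rps29 the change was -1.20 in WT and -1.25 in the knockout, for fil1 1.39 in WT and 1.09 in the knockout, and for sme2 -2.17 in WT and -2.44 in the knockout. All 138 ribosomal protein mRNAs were below 0 in the knockout too, with a median of -0.54 in both genotypes, and 486 of 522 long non-coding RNAs tested there were below 0. The difference between the genotypes itself was tested as an interaction in 12 libraries. It passed for 0 of 5661 genes in edgeR, with 35 (0.618%) at an unadjusted p under 0.05. That share is far below what this threshold gives where no gene differs, so the test was conservative here. The 0 calls do not show that the genotypes are alike.

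**Figure D5:**
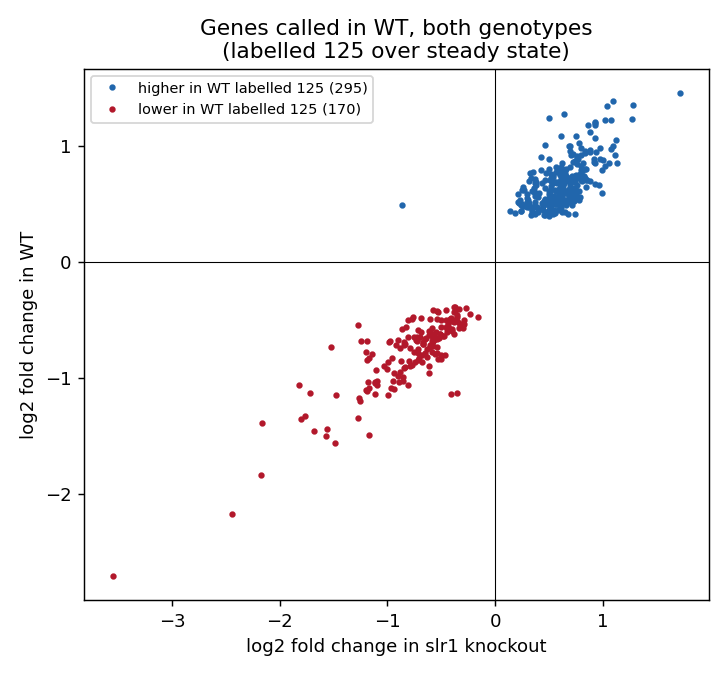
Log2 fold change of labelled 125 over steady state in WT (vertical) and slr1 knockout (horizontal) for the genes called in WT and tested in the knockout, 295 higher in blue and 170 lower in red. All red points and 294 blue points lie in the quadrant of equal sign, and the blue point left of 0 is slr1.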

How the data were processed

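The tools named in the submitters' processing notes are STAR 2.5.2a, Trimmomatic 0.36, R 3.5.2 and HTSeq 0.6.1p2, and no genome build, annotation or strand setting is given in the sources used here. The deposited files hold raw read counts per gene that the authors did not normalise, for 7268 S. pombe, 28006 human and 17104 fly identifiers. Human and fly rows, whose role no label states, entered only as totals. Summary lines of the counter stayed out of library sizes and tests: in the WT libraries reads without a feature were 5.15 to 5.68% of the lines in labelled 125 and 7.63 to 8.30% in steady state, and ambiguous reads 0.611 to 0.722% and 0.384 to 0.597%.

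WT labelled 125 was tested against WT steady state with edgeR 4.0.16 in R 4.3.3: quasi-likelihood F test, TMM scaling, filterByExpr at a minimum count of 10, the culture as a block, and Benjamini-Hochberg adjustment over all genes tested with a threshold of 0.05. The knockout was fitted alike, and the difference between genotypes as an interaction over 12 libraries. Labelled and steady state libraries of a culture carry the same number in the titles, and the protocol takes portions from each culture. Deviations from the fraction means correlated at 0.711, 0.809 and 0.451 within WT cultures, and between -0.539 and -0.142 across them. Each mean is that of the same 3 libraries, which pushes values across cultures below 0, so their negative sign is no added support for the pairing. In the knockout they correlated at 0.533, 0.587 and 0.16 within cultures, and between -0.613 and 0.478 across them. Labelled 125 of knockout culture 3 correlated about as well with steady state of culture 1 (0.169) as with its own. The pairing is thus less clear in the knockout than in WT. The positive values across knockout cultures (0.478 and 0.169) were between cultures 1 and 3. These had like fly counts per human count in steady state (2.15 and 1.85, against 1.07 in culture 2), and the part of this was not tested. The cultures started from single colonies of 1 strain per genotype. With the culture as a block, the p-values measure how far the difference between the fractions varied from culture to culture.

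CPM is scaled over the 18 libraries of a genotype, and ratios per culture use CPM + 1. Of the identifiers 6861 matched the RefSeq annotation of ASM294v3, which gave 4425 symbols, 5109 protein-coding genes and the spliced transcript lengths. No coordinates are printed, since the build of the counts is not known. The length correction put a lowess trend (span 0.4) of each library on log10 transcript length into the offsets. Alternatives were DESeq2 1.42.0, other scalings and filters, all fractions in one fit, no block and leaving out each culture. The fit was tested on simulated counts.

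The comparison and the 29 gene lists were chosen with earlier results of these data known, so lists are described by counts and medians only. Genes were named by a rule: slr1, then the top 12 calls in each direction with a symbol, at least 10 CPM and 1 direction in all 3 cultures, then the top 5 non-coding RNAs likewise, and from each list the top 2 called members in each direction or, with no call, the 2 of smallest p. Genes outside this rule, among them bgs1, bgs3, bgs4, ags1, rpl29, fhn1, snR90, snR30 and called members of short lists, were chosen after their values were seen.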

Additional observations from a re-analysis of the deposited data

Results flagged for a closer look

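The slr1 transcript was higher in labelled 125 in each WT culture and lower in each knockout culture. Its level was 222, 168 and 161 CPM in labelled 125 and 143, 111 and 128 CPM in steady state of WT cultures 1, 2 and 3 (log2 fold change 0.49, SE 0.11, edgeR adjusted p = 0.0394). In the knockout it was 9.47, 12.1 and 9.89 CPM in labelled 125 and 14.1, 26.3 and 17 CPM in steady state (log2 fold change -0.87, SE 0.34, edgeR adjusted p = 0.169). Since slr1 is the gene knocked out, these are residual reads whose source was not tested. Their ratio cannot be read as an effect of the genotype on labelling of slr1 RNA. The difference between the genotypes, 1.38 on the log2 scale (SE 0.24, unadjusted p = 2.825e-04), did not pass over all genes (edgeR adjusted p = 0.9998). In WT the call ended without culture 1 (edgeR adjusted p = 0.0632) and with the correction for transcript length (0.127).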

How the results depend on the processing

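The number of genes called in WT moved with the design more than with the scaling. Without the culture as a block (no replicate block) 0 were higher and 0 lower, against 295 and 180 with the pairing. Leaving out a culture gave 0 to 707 higher and 0 to 610 lower, with 404 and 475 without culture 1. All fractions together gave 553 higher and 368 lower. The replicate block with the transcript length correction gave 121 and 93, and the difference between the longest and shortest class was 0.033, against 0.58 to 0.91 without 1 culture. With library totals 427 genes were higher and 149 lower, 74.1% higher, against 62.1% with TMM. DESeq2 (280 and 225), RLE size factors (311 and 179), no filter (355 and 212) and a minimum count of 30 (300 and 231) stayed within 1.5 times. No gene called in WT was called in the opposite direction under any of these settings. In the knockout, with 0 and 0, leaving out a culture gave 34 to 343 higher and 66 to 625 lower, library totals 57 and 36, DESeq2 88 and 134, no filter 29 and 20, and all fractions 438 and 545. The difference between genotypes gave 0 genes in each alternative, DESeq2 included, which does not show that the genotypes are alike. Of 73 named genes 64 lost their call without culture 2 and 64 without the block. Of the same genes 7 lost it with all fractions, 6 without culture 1, 4 with DESeq2, 4 with library totals and 1 each with RLE size factors and no filter. Those lost with all fractions were eng1, ste11, str1, pho1, pho84, urg2 and hsp16. In DESeq2 they were tif213, vma7, rrp7 and rpn12. With the length correction 28 named genes lost their call, and not1 and Tf2-11 turned to -0.038 and -0.26. Without culture 3 Tf2-10 and Tf2-11 turned to -0.062 and -0.083, the lowest of -0.062 to 0.861 and -0.083 to 0.176 when a culture was left out. The cause of these changes was not tested. Depth limits the genes with few counts: 1611 identifiers were too low to be tested.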
